A study of Homo sapiens with 2 samples.

Results

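High-scoring peaks of ordinary width were described in the brachyury ChIP-seq data of MDA-MB-231, an established human breast cancer cell line. They are the peaks of the deposited list with a score of at least 80 and a width, end minus start, of 700 to under 1500 bases. The members were chosen by the score and the width of each peak, so both values describe the group and test nothing. In all, 725 of the 10342 peaks met the rule (7.01%). They were set beside the 8255 peaks of the same widths that scored under 80, called lower-scoring peaks here. The study had 2 libraries of wild-type MDA-MB-231 cells with no treatment named in the labels, 1 of immunoprecipitated chromatin (ChIP) and 1 of input DNA, and it compared them in a single peak list to look for sites bound by brachyury. The label of the first library names no antibody, and it was taken as the ChIP library because the list is named as immunoprecipitation against input. There were no replicates, the read depth of either library is unknown, and no antibody control or brachyury-depleted cells were analysed here. Every difference below therefore compares peaks within 1 list. The intervals reflect counting error alone and take peaks as independent, although neighbouring peaks are not.

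Brachyury, encoded by TBXT, is a T-box transcription factor that is required for mesoderm and notochord formation in the embryo. It binds DNA through its T-box domain and has been studied in carcinomas for its part in the epithelial-mesenchymal transition. In ChIP-seq, chromatin fragments bound by a protein are enriched with an antibody and sequenced, and a peak is a stretch of the genome where they pile up above the input. The score of a peak, read here as -10 x log10 of its p-value, says how unlikely its read pile is under the local background. It is not a measure of how much protein is bound, and a strong site in a poorly covered region can score low.

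The peaks are given in hg19, the build named in the submitters' processing notes, counted from base 1. In the list, 42 peaks started past the last GRCh38 RefSeq gene of their chromosome, 1 of them a high-scoring peak of ordinary width. Gene annotation and genome sequence of hg19 were not used here, so the nearest genes, the gene lists, the T-box half-site and the base composition of the peaks were not analysed here, and no sequence is shown. What could be described was the score, the width, the chromosome, the distance to neighbouring peaks and the number of peaks around each member.

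Most high-scoring peaks lay close to the limit. Their scores had a median of 88.28 and quartiles of 83.44 and 97.03. A score from 80 to under 90 was found in 420 members (57.9%), and one from 90 to under 100 in 154 (21.2%). A further 125 members (17.2%) scored from 100 to under 120, 22 scored from 120 to under 150, and 4 scored 150 or more. The lower-scoring peaks had a median of 56.88 and reached 79.98. The members therefore form the upper tail of one continuous range, and no gap in the scores separates them from the peaks below. The 3 members just inside the limit scored 80.05, 80.06 and 80.06 and were 761, 963 and 963 bases wide. The 3 peaks just outside scored 79.98, 79.97 and 79.97, with widths of 969, 1071 and 1071 bases. In all, 599 distinct scores occurred among the members, and no score was shared by more than 4 of them.

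**Figure D1:**
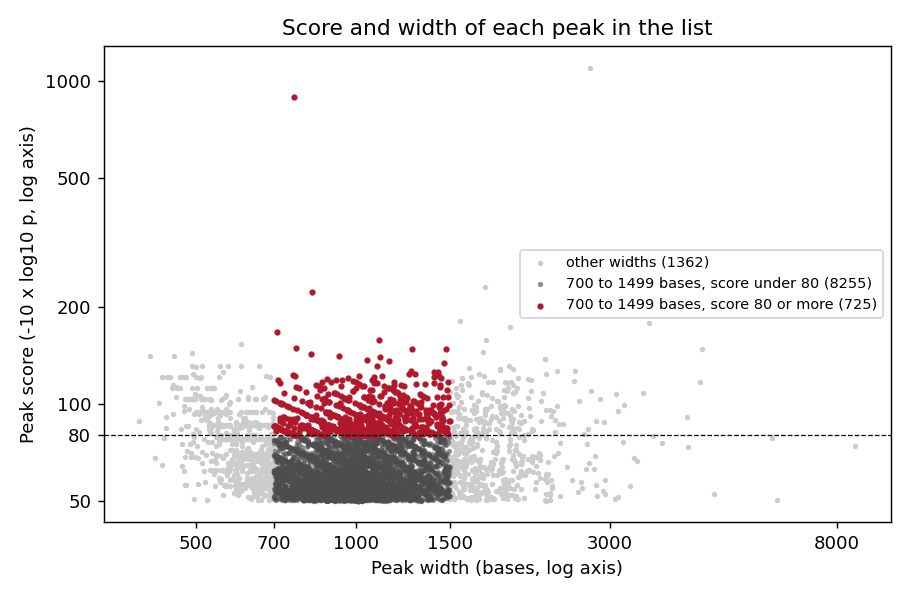
Width (horizontal, bases, log axis) and score (vertical, -10 x log10 of the p-value, log axis) of every peak; red points are the 725 high-scoring peaks of ordinary width, dark grey points the 8255 lower-scoring peaks of the same widths, light grey points the other peaks, and the dashed line is the score limit of 80. Most red points lie just above the line, and a single one, at 894.31, stands far above the rest.

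Ordinary width was the range with the lowest share of high scores. Of the 8980 peaks of 700 to under 1500 bases, 8.07% scored 80 or more (Wilson 95% interval 7.53 to 8.66). The share was 26.6% in the 821 narrower peaks (23.6 to 29.7) and 35.1% in the 541 wider ones (31.2 to 39.2). Ordinary width nevertheless held 725 of the 1133 peaks that scored 80 or more, or 64.0%. Within the range the share was not even. It was 6.99% at 700 to under 800 bases, 4.95% at 800 to under 900 bases and 5.16% at 900 to under 1000 bases. It then rose to 8.42% at 1000 to under 1100 bases and 14.3% at 1100 to under 1200 bases, and reached 22.7% at 1400 to under 1500 bases. High-scoring peaks were accordingly wider, with a median of 1051 bases against 960 bases, and 38.6% of them were at least 1100 bases wide against 18% of the lower-scoring peaks. Because both measures come from the same read pile and both chose the members, this relation is a description of the list.

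The 10 members with the highest scores were spread over 10 chromosomes, and none of them had another high-scoring peak of ordinary width as its nearest peak. The highest, at chr7:157253778-157254543, scored 894.31, which was 4.04 times the next score. It was 766 bases wide, its nearest peak lay 535.5 kb away with a score of 61.91, and 2 other peaks were found within 1 Mb. The second, at chr12:95157-95983, scored 221.47 and was the first peak of its chromosome, with the nearest peak 208.2 kb away. It had 3 other peaks within 1 Mb, but most of the 1 Mb before it lies off the chromosome. The count was not adjusted for this.

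The remaining 8 of the top 10 scored between 139.43 and 166.95 and had 9 to 18 other peaks within 1 Mb. The peak at chr2:97472517-97473227, 711 bases wide, scored 166.95 and had 18 other peaks within 1 Mb. The peak at chr10:132158341-132159445 scored 156.95, and the one at chr5:52119383-52120155 scored 148.9. For the peak at chr6:50161382-50162859, which scored 147.85, the nearest peak lay 54.26 kb away and was itself strong and narrow, with a score of 104.54 and a width of 459 bases. That was the only one of the 10 whose nearest peak scored 80 or more. The others of this group were chr16:81312609-81313884 at 147.54, chr11:31973496-31974318 at 142.87, chr9:100690537-100691465 at 140.14 and chr13:65913766-65914874 at 139.43. The closest neighbour of all belonged to the chromosome 9 peak, at 4.481 kb and with a score of 51.57.

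High-scoring peaks were found on chromosomes 1 to 22 and X, that is on 23 of the 24 chromosomes of the list. Chromosome Y had none, but it held only 1 peak of ordinary width. Chromosome 3 had the most high-scoring peaks, with 75, followed by chromosomes 2 with 68, 11 with 61 and 5 with 57. These counts follow the number of peaks on each chromosome, so the share of high-scoring peaks among peaks of the same widths was compared instead. On the 23 chromosomes with at least 20 such peaks it ranged from 2.1% to 10.4%, around the 8.07% of the list. The Wilson interval left out the list-wide share on only 2 chromosomes, without adjustment for the 23 looked at. On chromosome 11, 61 of 587 peaks were high-scoring (10.4%, 8.18 to 13.1), and on chromosome 18 only 3 of 143 were (2.1%, 0.716 to 5.99). Neither held at a score limit of 90, where only 305 members remained and no chromosome stood off the list. At a score limit of 70 and at widths of 800 to under 1500 bases, the number of chromosomes off the list was again 2. The intervals of chromosomes 8 (10.1%, 7.68 to 13.3) and 19 (3.65%, 1.57 to 8.26) included the list-wide share. On chromosome X, 5 of 85 peaks were high-scoring (5.88%, 2.54 to 13.0).

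**Figure D2:**
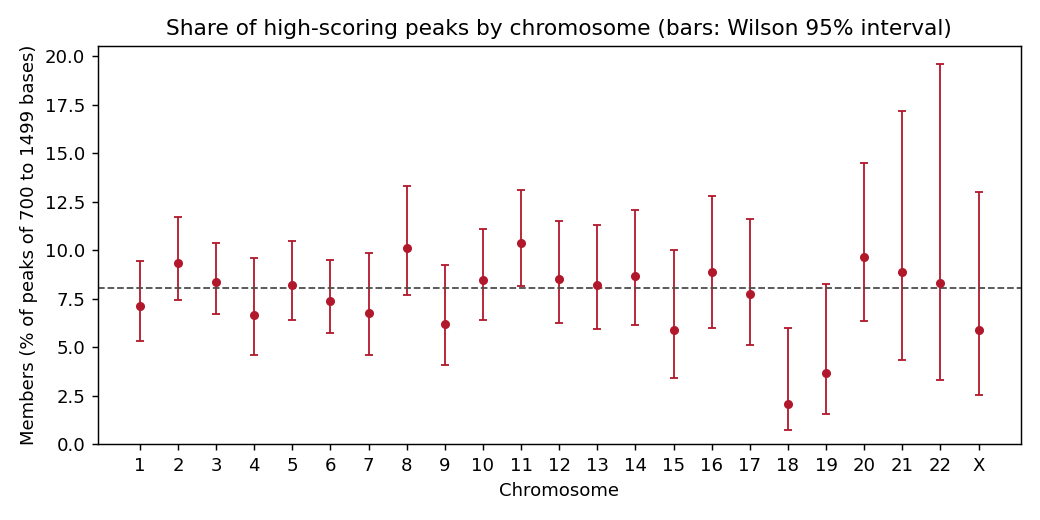
Share of high-scoring peaks (vertical, percent of all peaks of 700 to under 1500 bases) on each chromosome with at least 20 such peaks; bars are Wilson 95% intervals and the dashed line is the 8.07% of the list. The bars of chromosomes 11 and 18 miss the line, and those of the other 21 cross it.

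The 3 members of chromosome 18 had scores of 101.84, 125.54 and 80.27. The first and the second, at chr18:6399406-6400482 and chr18:10144694-10146092, lay in regions with 8 and 9 other peaks within 1 Mb, and the third, at chr18:65767015-65767974, had 1. Chromosome 21 had 7 members, 3 of which lay before its longest interval with no peak. These were chr21:9985827-9986874 at 90.49, chr21:10948597-10949883 at 101.54 and chr21:11003849-11004576 at 86.89, and they stood among only 5 peaks of ordinary width on that side. On the other side 4 of 74 were high-scoring (5.41%). With so few peaks, this contrast was noticed after the values had been seen and was not tested.

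Along the chromosomes the share of high-scoring peaks varied little. When the stretch between the outermost peaks of each chromosome was cut into 5 equal parts, the share was, in order, 7.22%, 8.30%, 7.49%, 8.94% and 8.32%, and each interval included the list-wide share. Within 1 Mb of the longest empty interval of a chromosome, 17 of 186 peaks were high-scoring (9.14%, Wilson 95% interval 5.78 to 14.1), beside 8.16% of those more than 5 Mb away. Within 100 kb of the outermost peak of a chromosome, 9 of 56 were (16.1%, 8.69 to 27.8), the only distance class whose interval lay above 8.07%. It was 1 of several classes looked at, without adjustment, and rests on few peaks. From 100 kb to 1 Mb the share was 6.56%. The class within 100 kb included the outermost peaks themselves, for which the interval included the list-wide share. Of these, 43 had ordinary width, and 6 of the 43 were high-scoring (14.0%, 6.56 to 27.3). They were chr1:9803-10523 at 116.24, chr1:248644125-248644942 at 101.42, chr10:776440-777222 at 111.37, chr12:95157-95983 at 221.47, chr14:107130351-107131183 at 90.04 and chr17:80943082-80944043 at 87.63. The other 3 of the 9 were chr3:179507-180578 at 110.04, chr17:591623-592716 at 131.17 and the chromosome 21 peak at 90.49.

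No grouping of high scores was detected. The nearest peak of ordinary width was high-scoring for 48 of the 725 members (6.62%, Wilson 95% interval 5.03 to 8.67) and for 652 of 8254 lower-scoring peaks (7.90%, 7.34 to 8.50). The difference of -1.28 percentage points had an interval of -2.98 to 0.846, which includes 0, so that an excess of more than 0.846 points lay outside it. At widths of 800 to under 1500 bases the difference was -2.34 percentage points (-4.04 to -0.171), and within 5 Mb windows that held a member it was -4.05 (-5.83 to -1.87). Both of these intervals lay below 0, with members less often next to a member, although the second setting lowers the difference by construction. Going along each chromosome, the next peak of ordinary width was high-scoring after 55 of 722 members (7.62%) and after 666 of 8234 lower-scoring peaks (8.09%). Of the members, 618 stood singly in the order of peaks of ordinary width, 49 pairs stood next to each other, and 3 runs held 3 members. The score of the nearest peak of any width also did not differ beyond its interval, with medians of 58.25 around members and 58.81 around lower-scoring peaks (difference -0.56, interval -1.51 to 0.31).

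The 3 runs lay on chromosomes 6, 11 and 12. The run on chromosome 6 comprised chr6:102735699-102736663 at 95.1, chr6:102768398-102769323 at 82.72 and chr6:103001125-103001850 at 82.99. On chromosome 11 it comprised chr11:83002237-83003021 at 85.19, chr11:83056785-83058143 at 89.75 and chr11:83129376-83130551 at 100.75. On chromosome 12 it comprised chr12:116267936-116268762 at 82.61, chr12:116552313-116553103 at 102.01 and chr12:116661130-116661992 at 116.47. None of the 3 runs held a score above 116.47.

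Successive members on a chromosome were a median of 2161 kb apart, with an interquartile range of 921.9 to 4312 kb. Of 702 such distances 192 were under 1 Mb, 24 under 100 kb and 2 under 10 kb. These distances depend on how many members there are and were not set beside those of lower-scoring peaks. The closest pair was at chr11:88703934-88705002 and chr11:88705272-88706368, with scores of 80.1 and 92.0 and 269 bases between them. The second pair, chr8:77138271-77139569 at 80.09 and chr8:77141605-77142352 at 81.87, was 2035 bases apart. In the other 3 of the 5 closest pairs, on chromosomes 20, 14 and 5, midpoints lay 11.49, 22.44 and 25.4 kb apart. The chromosome 5 pair joined a score of 135.21 with one of 80.43, whereas the 4 remaining pairs held scores from 80.09 to 92.0. No other peak lay between the partners of any of these pairs.

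**Figure D3:**
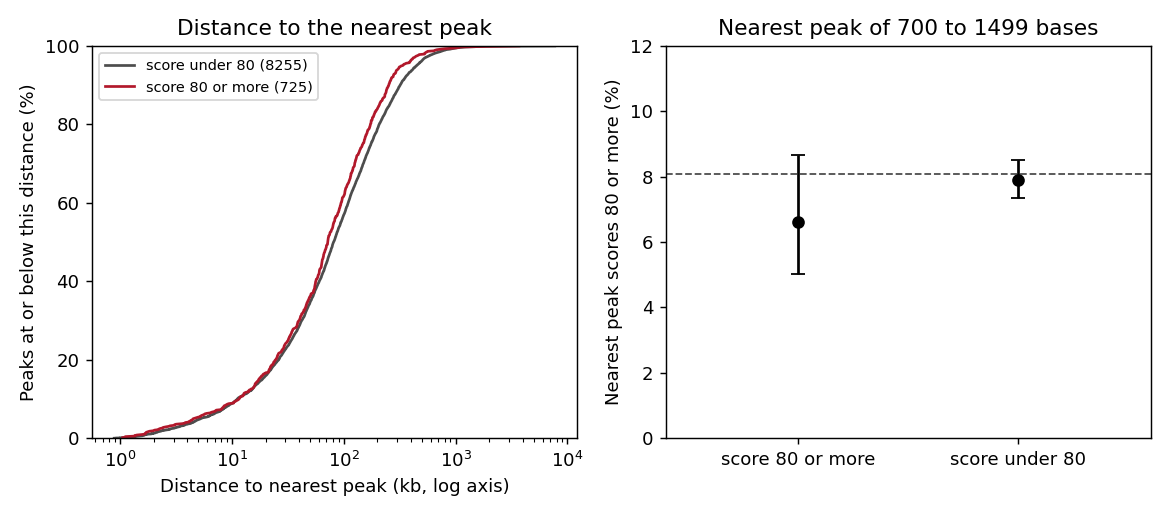
Left, the share of peaks (vertical, percent) whose nearest peak of any width lies at or below the distance on the horizontal axis (kb, log axis), for 725 high-scoring (red) and 8255 lower-scoring peaks (grey) of ordinary width. Right, the share whose nearest peak of ordinary width is high-scoring, with Wilson 95% intervals and the 8.07% of the list as a dashed line; both intervals, 5.03 to 8.67 and 7.34 to 8.50, include it.

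The nearest peak was slightly closer to high-scoring peaks, by a difference that depended on the limits used. The nearest peak of any width was a median of 71.93 kb away (interval of the median 65.84 to 79.64), against 81.01 kb for lower-scoring peaks (78.83 to 83.91). The difference was -9.08 kb (-15.8 to -1.07). Its interval also lay below 0 at a score limit of 70 (-6.26 kb, -11.2 to -0.181) and at widths of 700 to under 1200 bases (-12.5 kb, -19.1 to -5.97). The same held with peaks less than 1 kb apart merged (-10.3 kb, -16.4 to -1.27) and without chromosomes 11 and 18 (-10.1 kb, -17 to -1.2). By contrast, the interval of the difference included 0 at a score limit of 90 (-5.3 kb, -15.6 to 6.78) and at widths of 800 to under 1500 bases (-7.52 kb, -14.1 to 0.62). It also included 0 for members of at least 100 (-13.1 kb, -24.9 to 0.317) and within windows that held a member (-0.849 kb, -7.61 to 7.1). The windows setting kept every member and dropped lower-scoring peaks only, whose median became 72.8 kb. Windows with more peaks more readily hold a member, so this setting narrows the difference by construction. Another peak stood within 100 kb of 61.7% of members and 56.9% of lower-scoring peaks, a difference of 4.71 percentage points (0.961 to 8.34). Closer in, the interval of the difference included 0. Within 10 kb the shares were 8.83% and 8.87% (difference -0.0398 percentage points, -2 to 2.32), and within 2 kb they were 1.93% and 1.28% (difference 0.647 percentage points, -0.175 to 1.95). The 2 distributions overlapped widely, with interquartile ranges of 32.03 to 148.1 kb and 33.99 to 175 kb.

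The number of other peaks within 1 Mb had a median of 9 around members and 8 around lower-scoring peaks, a difference of 1 with an interval of 0 to 1, which includes 0. The difference in the median was 0 when only lower-scoring peaks were counted (0 to 1), with a median of 7 in both groups. The means of that count still differed, at 7.38 around members and 6.85 around lower-scoring peaks (difference 0.536). At a score limit of 90 the difference in the median was 1 (-0.414 to 1). It was 0 within windows that held a member (0 to 0), a setting that drops lower-scoring peaks from windows without one. At widths of 700 to under 1200 bases, and without chromosomes 11 and 18, the difference was 1 (1 to 1 in both). Intervals of no width arise because the counts are whole numbers with many ties. The mean, which was looked at after the data had been seen because whole-number medians are coarse, was 9.24 ± 4.05 (SD over 725 peaks) around members and 8.61 ± 4.07 (SD over 8255 peaks) around lower-scoring peaks, a mean difference of 0.63 (0.323 to 0.938). Read the other way, the share of high-scoring peaks was 5.59% among peaks with 0 to 3 others within 1 Mb (Wilson 95% interval 4.26 to 7.32). It was 7.30% with 4 to 7 others (6.40 to 8.32), 8.74% with 8 to 11 (7.82 to 9.77), 8.52% with 12 to 15 (7.24 to 10) and 11% with 16 to 27 (8.58 to 14.1). The lowest and the highest class lay off the list-wide share on either side. The difference in the mean was present on 12 of the 17 chromosomes with at least 20 members and absent or turned on the other 5. Neither measure changed steadily with the score. The mean number of others was 9.41 ± 4.13 (SD over 420 peaks) for scores of 80 to under 90. It was 9.32 ± 4.08 (SD over 154 peaks) for 90 to under 100 and 8.70 ± 3.74 (SD over 151 peaks) for 100 or more. The weakest peaks, which scored 50 to under 55, had 8.74 ± 4.12 (SD over 3172 peaks). The median was 9 in each of these classes, and the differences between their means were small beside the spread and were not tested. The median distance to the nearest peak was 69.6 kb for 80 to under 90, 82.5 kb for 90 to under 100 and 67.9 kb for 100 or more (interval of the median 56.4 to 81.2), against 79.1 kb in the weakest peaks.

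Width moved with this difference. Among peaks of 700 to under 900 bases the nearest peak was 61.3 kb from members and 86.3 kb from lower-scoring peaks, and at 900 to under 1100 bases the distances were 69.8 and 79.8 kb. At 1100 to under 1500 bases the order turned, with 83.4 kb for members and 75.6 kb for lower-scoring peaks (difference 7.85 kb, -3.84 to 20.4). The mean number of others within 1 Mb was 8.72 for members and 8.27 for lower-scoring peaks at 700 to under 900 bases. It was 9.38 and 8.59 at 900 to under 1100 bases, and 9.44 and 9.35 at 1100 to under 1500 bases. Among lower-scoring peaks this number thus rose with width, and members were wider. The mean difference over all widths and the shares by number of others were not adjusted for width. The closer spacing of high-scoring peaks was thus seen in the 2 narrower width ranges and not in the widest one, and the part of width in the result was not tested further.

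**Figure D4:**
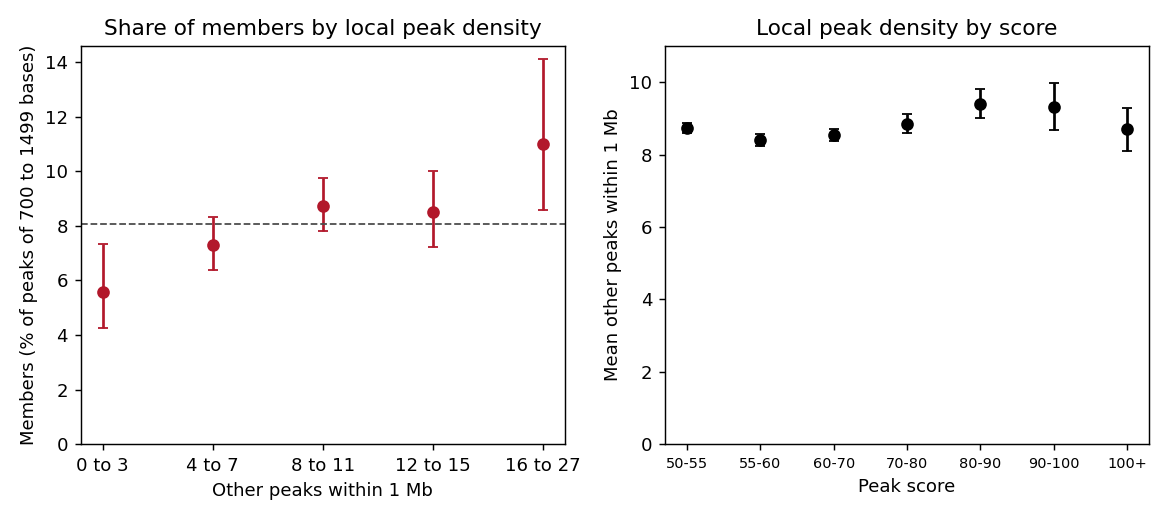
Left, share of high-scoring peaks (vertical, percent of peaks of 700 to under 1500 bases) by the number of other peaks within 1 Mb, with Wilson 95% intervals and the 8.07% of the list as a dashed line; it goes from 5.59% to 11%. Right, mean number of other peaks within 1 Mb by score class, with normal 95% intervals of the mean over peaks. The highest points are those at 80 to under 100, and the point at 100 or more is at 8.70.

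Only 4 members had no other peak within 1 Mb. These were chr8:18964933-18965819 at 85.68, chr15:83270247-83271248 at 80.14, chr17:37329652-37330360 at 82.07 and chrX:25108238-25109115 at 94.28, the last with its nearest peak 3693 kb away. The share of such isolated peaks was 0.552% in members and 0.569% in lower-scoring peaks. At the other extreme, 8 of the 725 members had at least 20 others within 1 Mb, 5 of them on chromosome 3. The same count was not made for lower-scoring peaks. Chromosome 3 had the most peaks of ordinary width, 895. Its lower-scoring peaks had a mean of 10.5 others within 1 Mb, against 8.61 over the list. The fullest surroundings of a member, with 26 others, were those of chr3:74034245-74035572 at 84.78 and chr3:74516958-74517915 at 87.93. Neither scored far above the limit.

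Windows of 5 Mb were used to look for regions rich in high scores. Of 587 windows with a peak of ordinary width, 369 had a high-scoring one, and the mean was 1.24 ± 1.31 members (SD over windows). In the 428 windows with at least 10 peaks of ordinary width, the median share of members was 7.69%, with an interquartile range of 3.67 to 11.8%, and 102 of these windows had none. Windows with 5 or more members numbered 13 and held 367 peaks of ordinary width, whereas the 218 windows with no member held 2154. A high number of members in a window thus went in part with a high number of peaks. The window with the most was on chromosome 11 from 80000001 to 85000000, where 8 of 34 peaks were high-scoring (23.5%), with scores from 80.13 to 105.01 over a stretch of 3.24 Mb. It contained the chromosome 11 run named above. The window on chromosome 17 from 50000001 to 55000000 had 7 of 27 (25.9%), among them chr17:53468469-53469406 at 112.99 and chr17:54869516-54870532 at 98.78. The window on chromosome 2 from 75000001 to 80000000 held 6 of 21 (28.6%). Chromosome 13 had 6 of 24 from 40000001 to 45000000 (25%). On chromosome 3 from 80000001 to 85000000 there were 6 of 40 (15%). By contrast, none of 30 peaks was high-scoring between 110000001 and 115000000 of chromosome 5, and none of 26 was between 20000001 and 25000000 of chromosome 10. These windows were picked as the extremes of 587, so no interval is given for them.

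**Figure D5:**
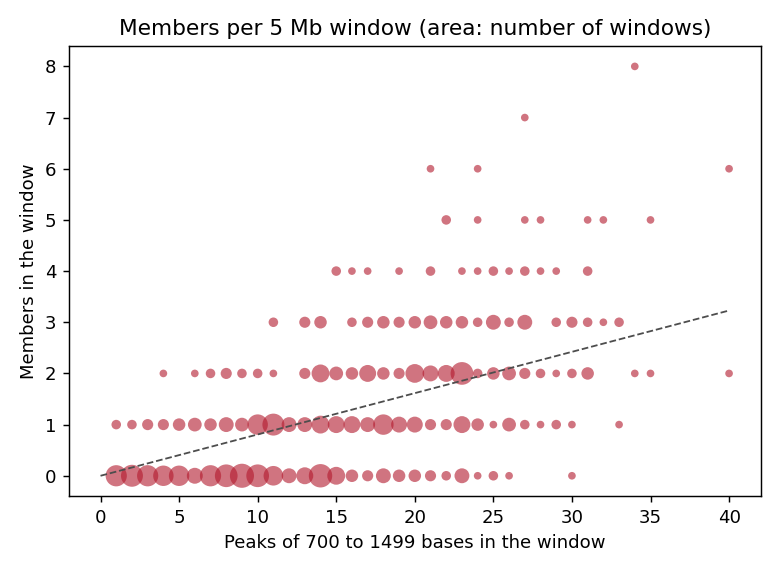
Number of high-scoring peaks (vertical) against the number of all peaks of 700 to under 1500 bases (horizontal) in each 5 Mb window; the area of a point grows with the number of windows at that place, and the dashed line is the 8.07% of the list. Windows scatter around the line, and the 2 highest points are those of chromosome 11 with 8 of 34 and chromosome 17 with 7 of 27.

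For the kind of neighbour, no difference beyond its interval was found. The nearest peak was narrower than 700 bases for 9.38% of members and 8.12% of lower-scoring peaks (difference 1.26 percentage points, -0.745 to 3.67), and it was 1500 bases or wider for 4.69% and 4.17% (difference 0.522, -0.868 to 2.36). It scored 80 or more, at any width, for 8.69% of members and 10.5% of lower-scoring peaks (difference -1.85, -3.81 to 0.514). These intervals include 0, which does not show that the groups are alike.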

How the data were processed

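One peak list of MDA-MB-231 cells, made from 1 ChIP and 1 input library, was analysed. The authors deposited a score per peak, read as -10 x log10 of its p-value because the lowest was 50, the value given by the limit of 1e-05 in the name of the list. Other deposited columns were start and end positions. Per the labels, Bowtie2 2.1.0 and hg19 were used, and peak names give MACS as the caller. Its version, duplicate handling and filters are not given in the sources used here.

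Peaks were compared by midpoint. Shares have Wilson intervals and medians have order-statistic intervals at 95%, and differences of these combine both intervals by the square-and-add rule. No test was run, since peaks are not replicates and there was 1 sample per group. The members and comparisons were chosen with earlier results of these data known. The named items were the 10 highest members, 3 peaks on each side of the score limit, the 5 closest pairs, and gene-based items not analysed here. The isolated and most crowded members, those near the outermost peaks, the runs, the windows and the members of chromosomes 18 and 21 were named after their values were seen. The functions were tested on simulated lists. Alternatives were other score and width limits, merging of peaks less than 1 kb apart and restriction to windows with a member. Python 3.11.15, numpy 2.4.6, scipy 1.17.1, pandas 2.3.3 and matplotlib 3.10.9 were used. The depth is unknown, so the precision of each score cannot be given.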

Additional observations from a re-analysis of the deposited data

How the results depend on the processing

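The number of members was 1620 at a score limit of 70 and 305 at a limit of 90, which follows from the rule. The number of chromosomes whose interval left out the list-wide share, 2 in the report, was 0 at a limit of 90. It was 1 at widths of 700 to under 1200 bases and 1 within windows that held a member. At a limit of 70 and at widths of 800 to under 1500 bases it stayed at 2. The cause was not tested. Within windows that held a member, the difference in the share with a high-scoring nearest peak was -4.05 percentage points (-5.83 to -1.87), which no longer included 0, and the difference in the distance to the nearest peak was -0.849 kb (-7.61 to 7.1). These windows were picked for holding a member, which raises the share around lower-scoring peaks by construction. The pick also favours windows with more peaks, so it lowers the median distance of lower-scoring peaks, 72.8 kb there, as well. By width, which was looked at after the data had been seen, the difference in distance was -24.9 kb (-33.2 to -11) at 700 to under 900 bases and 7.85 kb at 1100 to under 1500 bases. Its interval included 0 at a score limit of 90, at widths of 800 to under 1500 bases and for members of at least 100, as given in the report, while the interval for a high-scoring nearest peak excluded 0 at those widths. In total 35 alternative values stayed within the interval of the reported value, which for peaks within 1 Mb is that of the median, or, for counts, within 1.5 times of it. This says nothing of whether their own intervals included 0. A further 6 results that had been planned on genes and sequence could not be computed without an hg19 genome and annotation. No paired analysis was possible because no result comes from a test and each group has 1 sample. Scores are limited by a depth that is unknown and by the lack of replicates.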
